A study of Mus musculus with 36 samples.

Results

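The 10 genes described here carry bile acid synthesis, conjugation and transport in hepatocytes: Cyp7a1, Cyp8b1, Cyp27a1, Cyp7b1, Akr1d1, Slc27a5, Baat, Slc10a1, Abcb11 and Abcb4. They were taken as every probe whose gene name in the array files, or whose current symbol for the listed transcript, is one of these names. All 10 were found, on 13 probes, among 13041 named genes and 21781 probes in the processed table of the study. Each of the 13 probes was flagged as well above its background in both dyes on 36 of 36 arrays and saturated on 0 of them. The faintest were Akr1d1 and the dimmer Cyp7a1 probe. Their Cy5 signal was 6.1 and 6.8 times background on average, and 2.26 and 2.61 times on the lowest array. Liver RNA of 36 adult male mice, C57BL/6J in the labels and C57BL/6JOlaHsd in the methods of the study, was measured on 36 2-colour arrays, each with the Cy5-labelled cRNA of 1 mouse against a Cy3-labelled pool of all livers. All mice ate a mild-high-fat diet with 30% of its energy as fat for an adaptation of 3 weeks in the labels and 2 weeks in the methods of the study. The baseline group (labelled t=0, n = 12) was killed then, the control group (HF, n = 12) stayed on the diet for another 12 weeks, and the quercetin group (HF-Q, n = 12) received it for 12 weeks with 0.33% (w/w) quercetin, a plant flavonol. All mice were fasted before killing, and control and quercetin mice were 12 weeks older than baseline mice. Age and time on the diet therefore cannot be told apart in a comparison with baseline.

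Bile acids are made from cholesterol in hepatocytes, by a classic route that opens with the 7α-hydroxylase Cyp7a1 and an acidic route that opens with the mitochondrial sterol side-chain hydroxylase Cyp27a1. They are activated to CoA thioesters, joined to taurine or glycine, pumped into bile, taken up again in the ileum and returned to the liver in portal blood. Synthesis is held in check by bile acids themselves, through the nuclear receptor Fxr (Nr1h4), its target Shp (Nr0b2) and an intestinal fibroblast growth factor that acts on Fgfr4. Cyp7a1 also has a strong daily rhythm, and the D-box-binding clock factor Dbp is known as an activator of it.

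Of the 10 genes, 6 have an entry in the promoter table used here, which derives from RefSeq (build GRCm38.p6) and holds 250 bases before and 50 after each start of transcription. Cyp7a1, Cyp7b1, Baat and Slc27a5 have none there. The stretches below are shown because 3 kinds of motif tied to the regulation of this pathway were searched in these promoters on both strands, and capitals mark the match. The inverted repeat of the half-sites AGGNCA and TGACCT with 1 base between them, of the kind that Fxr binds, was in 0.0365% of all 32851 promoters and, among the genes described, in that of Abcb11. The half-site CAAGGNCA, of the kind that the orphan receptor Lrh-1 (Nr5a2) binds, was in 6.71% of promoters and in that of Cyp8b1. A loose form of the D-box, TTATGNAA with any base at N, was in 3.38% of promoters. It was in those of Cyp27a1, Akr1d1 and Slc10a1, in the last as its reverse complement. The base at N was A in Cyp27a1 and C in Akr1d1 and Slc10a1. The 3 motifs did not overlap in these stretches. A match is a run of letters and not evidence of binding.
Abcb11 (chr2:69342643-69342703, minus strand): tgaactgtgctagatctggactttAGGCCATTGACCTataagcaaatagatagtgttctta
Cyp8b1 (chr9:121916334-121916389, minus strand): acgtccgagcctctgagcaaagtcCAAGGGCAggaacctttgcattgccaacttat
Cyp27a1 (chr1:74713451-74713506, plus strand): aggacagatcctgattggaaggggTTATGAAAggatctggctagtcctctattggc
Akr1d1 (chr6:37530141-37530196, plus strand): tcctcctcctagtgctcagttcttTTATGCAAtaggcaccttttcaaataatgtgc
Slc10a1 (chr12:80968052-80968107, minus strand): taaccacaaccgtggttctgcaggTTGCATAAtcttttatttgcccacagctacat

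All levels below are log2 normalized signals of the study's processed table, in which each array has the same median. They compare mice on 1 probe and not genes with each other. A gene is represented by its brightest probe unless a dimmer one is named, a difference is given on the log2 scale with its standard error (SE), and "called" means an adjusted p under 0.05 over all 21781 probes (limma, two-sided, Benjamini-Hochberg). In whole liver, fewer cells of a type and less RNA per cell cannot be told apart. The liver label was borne out by 6 of 7 hepatocyte markers in the table (all but Serpina1a), whose summed level on the log2 scale ran from 19.58 to 20.25 at baseline, from 19.78 to 20.28 in control and from 19.70 to 20.40 in quercetin mice. A pair of arrays stood apart. Control replicate 5 carried all 5 markers of the exocrine pancreas (Cpa1, Pnlip, Ctrb1, Prss2, Cela2a) far above the other 35 mice, for example Cpa1 at 20.27 against 9.99 to 10.71. Quercetin replicate 2 had 96.7% of its spots well above background in Cy5, against at most 67.4% on any other array. Differences of the 10 genes that rest on these mice are given with and without them. Genes outside the 10 are given only with both mice included.

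**Figure D1:**
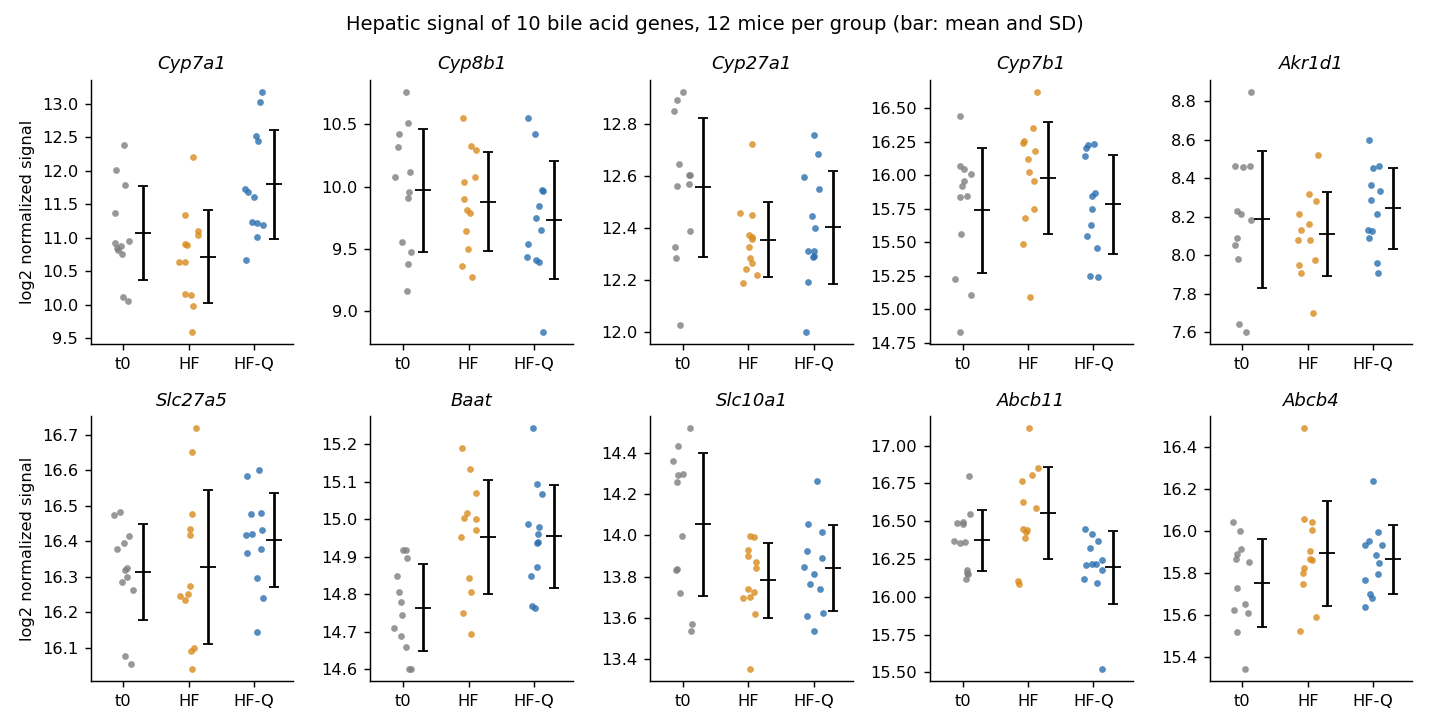
Log2 normalized signal (vertical axis) of the 10 genes on their brightest probes in baseline (t0), control (HF) and quercetin (HF-Q) livers; each point is 1 mouse and the bar is the mean with its SD (n = 12 per group). The quercetin mice lie high in Cyp7a1, with a mean of 11.80 against 10.72 in control, and low in Abcb11, with 16.19 against 16.55.

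The comparison of quercetin with control asks what the flavonol changed on the same diet. Among the 10 genes, Cyp7a1, the rate-limiting enzyme of the classic route, was called, and it was 2.11-fold higher in quercetin livers. Over all probes, 2.36% were called in this comparison, 1.49% higher and 0.863% lower. A count of 1 gene was not read as a property of the pathway: the median difference of the 10 genes was 0.02, beside 0.01 over all probes, with 6 genes higher and 4 lower.

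Cyp7a1 was measured on 2 probes, both on chromosome 4 (build mm8), at 6193456 to 6193515 and at 6195632 to 6196238. On the brighter one, control mice ranged from 9.59 through a median of 10.77 to 12.20, and quercetin mice from 10.66 through 11.65 to 13.18. Baseline mice ranged from 10.05 through 10.90 to 12.39. The groups overlapped: 4 of 12 quercetin mice lay above every control mouse, 6 of 12 control mice lay below every quercetin mouse, and 11 of 12 quercetin mice lay above the control median. The means were 11.80 ± 0.82 (SD, n = 12) with quercetin and 10.72 ± 0.70 (SD, n = 12) in control, a difference of 1.08 (SE 0.28, 95% interval 0.49 to 1.66, limma adjusted p = 0.0404). The dimmer probe gave a difference of 0.81 (SE 0.19, limma adjusted p = 0.0205), and there too 11 of 12 quercetin mice lay above the control median. On that probe the spread was wider with quercetin (SD 0.66) than in control (SD 0.30). The 2 probes followed each other over the 36 mice after group means were removed (r = 0.89, rho = 0.87, each with a permutation p of 1e-05, the smallest that the permutations can give), and r was 0.87 without the 2 mice farthest from the median of the brighter probe.

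The size of the Cyp7a1 difference was steadier than its call. Under 20 alternative processings it ran from 1.00 to 1.18, with adjusted p from 0.0166 to 0.514, and it was called in 14 of them. The difference was positive within 8 of the 9 slides, with a range of -0.97 to 2.93. With the slide as a fixed block it was 1.03 (SE 0.32, limma adjusted p = 0.139). With each of 24 mice left out in turn it ran from 0.95 to 1.21. The call was lost without control replicate 2, 3, 6, 9 or 12 or quercetin replicate 1, 2, 4, 5, 6 or 11, with adjusted p of at most 0.0736. Without control replicate 5, the mouse with pancreas markers, it was 1.07 (limma adjusted p = 0.0484). Without quercetin replicate 2 it was 1.01 (limma adjusted p = 0.0694), and without both of these mice 1.00 (limma adjusted p = 0.0777). The dimmer probe was called in all 24 fits that left out 1 mouse, in 16 of the 20 alternatives, and without both mice (0.80, limma adjusted p = 0.0357).

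The Cyp7a1 difference was not shared by all replicate numbers. Among mice numbered 1 to 6, quercetin mice ranged from 11.62 to 13.18 and control mice from 9.59 to 11.05, so the groups did not overlap, and the means differed by 2.04. Among mice numbered 7 to 12, quercetin mice ranged from 10.66 to 11.68 and control mice from 10.16 to 12.20, so they overlapped fully, and the means differed by 0.11. The dimmer probe gave 1.40 and 0.21. Differences for Cyp8b1 were 0.31 and -0.60, and for Abcb11 -0.54 and -0.18. This division was made after the values were seen and was not tested. The labels do not say what the numbers stand for, and each slide held mice of both ranges of numbers.

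**Figure D2:**
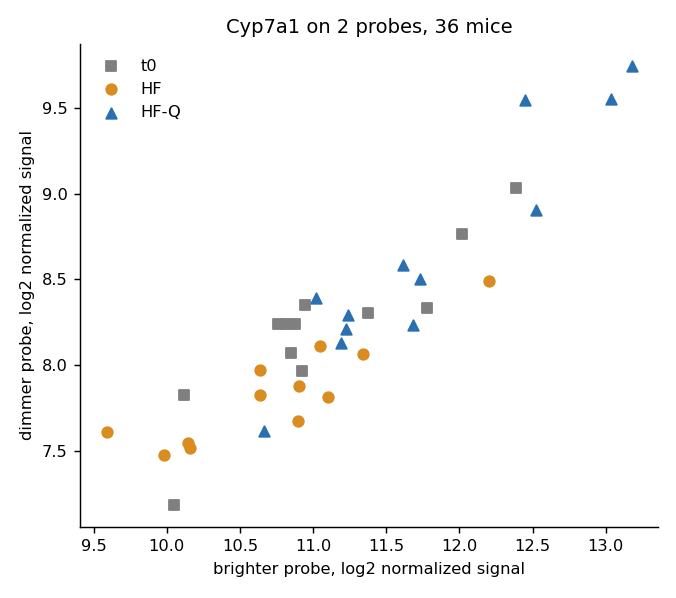
Cyp7a1 on its brighter probe (horizontal axis) and its dimmer probe (vertical axis), both as log2 normalized signal; each point is 1 of 36 mice, with squares for baseline, circles for control and triangles for quercetin. The points follow 1 line, and 6 quercetin mice lie above every control mouse on the dimmer probe.

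The other hydroxylases and the reductase of synthesis were not called between quercetin and control. Cyp8b1, the sterol 12α-hydroxylase that sets the share of cholic acid, ranged from 8.83 through 9.70 to 10.55 with quercetin and from 9.28 through 9.85 to 10.55 in control. Its difference was -0.15 (SE 0.16, 95% interval -0.49 to 0.19, limma adjusted p = 0.689), with 4 of 12 quercetin mice above the control median. Cyp7b1, the oxysterol 7α-hydroxylase of the acidic route, differed by -0.20 (95% interval -0.50 to 0.11), and Cyp27a1 by 0.05 (-0.10 to 0.20). Akr1d1, the reductase that gives bile acids their bent ring, differed by 0.13 (-0.04 to 0.31). The intervals of Cyp8b1 and Cyp7b1 are wide, and they do not show that the groups were alike.

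The bile salt export pump Abcb11, which moves bile acids into the canaliculus, gave the next difference after Cyp7a1 by size, and was not called. Quercetin mice ranged from 15.52 through 16.22 to 16.45, control mice from 16.09 through 16.52 to 17.11 and baseline mice from 16.12 through 16.37 to 16.80. None of the 12 quercetin mice reached the control median, and 7 of 12 control mice lay above every quercetin mouse. The difference was -0.36 (SE 0.11, 95% interval -0.58 to -0.14, limma adjusted p = 0.0683, unadjusted p = 0.00209). It was negative within 8 of the 9 slides and under all 20 alternatives (-0.76 to -0.28, adjusted p 0.0301 to 0.463), and was called in 6 of them. One of these was the fit without quercetin replicate 2 and control replicate 5 (-0.40, limma adjusted p = 0.044). Without control replicate 5 alone it was also called (-0.40, limma adjusted p = 0.0311), as it was without control replicate 9 (-0.40, limma adjusted p = 0.036).

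Slc10a1, Abcb4, Slc27a5 and Baat were not called between these groups. Slc10a1, the sodium-dependent importer of bile acids from portal blood, differed by 0.06 (95% interval -0.10 to 0.22). Abcb4, the canalicular phospholipid floppase, differed by -0.03 (-0.20 to 0.14) on its brighter probe and by -0.05 on its dimmer one. Slc27a5, the bile acyl-CoA synthetase, differed by 0.08 (-0.07 to 0.22). For Baat, which joins bile acids to taurine or glycine, the 2 probes disagreed. The brighter probe had a difference of 0.00 (SE 0.06, limma adjusted p = 0.99), whereas the dimmer one had 0.17 (SE 0.06, limma adjusted p = 0.163), with 12 of 12 quercetin mice above the control median. The dimmer probe was called in 5 of 20 alternatives, among them loess normalization of the scanner intensities (0.22, limma adjusted p = 0.022).

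**Figure D3:**
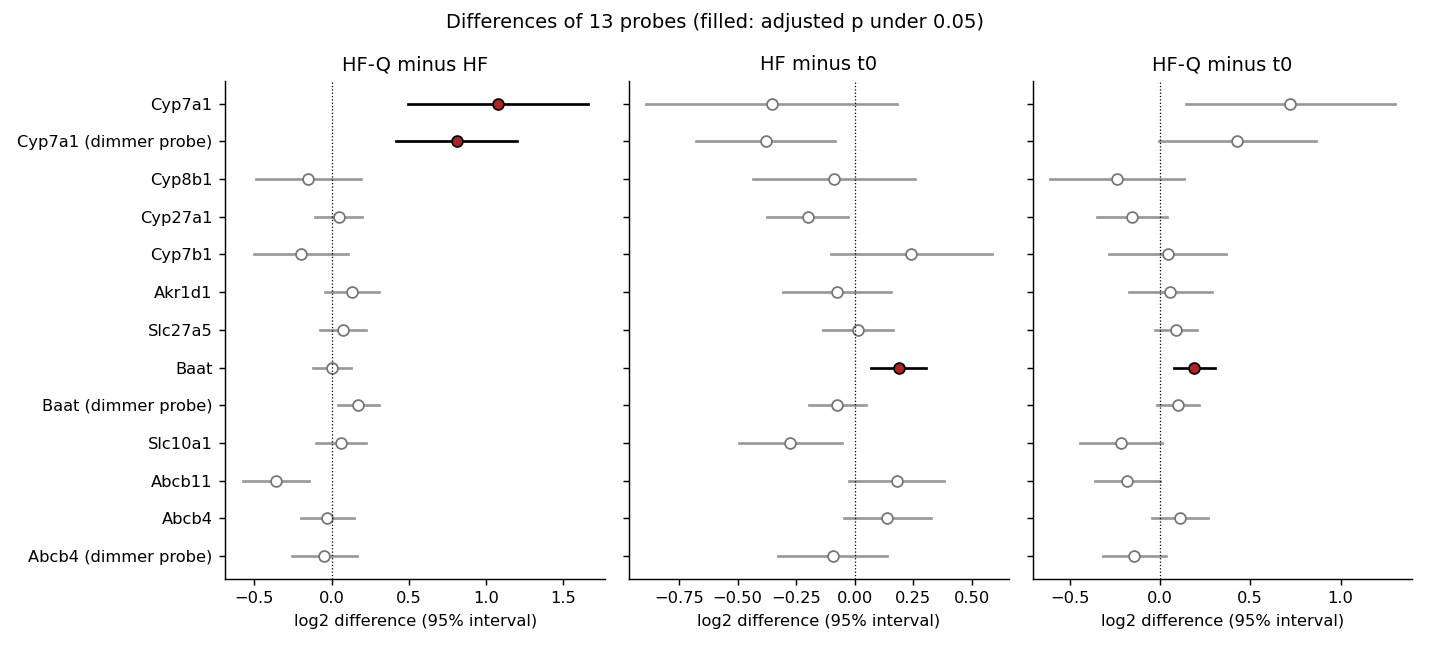
Log2 differences (horizontal axis) of the 13 probes in the 3 comparisons, with 95% intervals from limma; filled points have an adjusted p under 0.05. Both Cyp7a1 probes are filled for quercetin against control (1.08 and 0.81), and the brighter Baat probe is filled for both comparisons with baseline (0.19 and 0.19).

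The comparison of control with baseline asks what 12 further weeks on the diet, and of age, changed. Of the 10 genes, Baat was called, at a 1.14-fold higher level in control. Over all probes 21.3% were called, 10.9% higher and 10.4% lower, so 1 of 10 genes is below the share of the whole array. Baat ranged from 14.60 through 14.76 to 14.92 at baseline and from 14.70 through 14.99 to 15.19 in control. The upper ends separated more than the lower ones: 8 of 12 control mice lay above every baseline mouse. The difference was 0.19 (SE 0.06, limma adjusted p = 0.0207), with 10 of 12 control mice above the baseline median. Its dimmer probe went the other way, by -0.08 (SE 0.06, limma adjusted p = 0.372), so the direction for the gene is not settled. With the slide as a fixed block the brighter probe had 0.16 (limma adjusted p = 0.0553), and from loess-normalized scanner intensities 0.12 (limma adjusted p = 0.0504). It was called without control replicate 5, as in each of the 24 fits that left out 1 mouse.

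Slc10a1 and Cyp27a1 were lower in control than at baseline in most mice without being called. Slc10a1 ranged from 13.53 through 14.13 to 14.52 at baseline and from 13.35 through 13.79 to 13.995 in control, and 0 of 12 control mice lay above the baseline median. Its difference was -0.27 (SE 0.11, 95% interval -0.49 to -0.05, limma adjusted p = 0.0669), it was called in 7 of 17 alternatives, and the spread of baseline mice (SD 0.35) was larger than that of control mice (SD 0.18). Cyp27a1 had a difference of -0.20 (SE 0.08, limma adjusted p = 0.0862), with 1 of 12 control mice above the baseline median, and was called in 6 of 17 alternatives. For Slc10a1, the calls in 3 fits without 1 mouse came with baseline replicate 2, 4 or 9 left out, and for Cyp27a1 the calls in 2 such fits with baseline replicate 4 or control replicate 7 left out. In these fits the difference ran from -0.32 to -0.30 for Slc10a1 and was -0.25 and -0.23 for Cyp27a1.

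In the same comparison Cyp7a1 had -0.35 (SE 0.26, limma adjusted p = 0.337) and, on its dimmer probe, -0.38 (SE 0.15, limma adjusted p = 0.0611), where 1 of 12 control mice lay above the baseline median. The dimmer probe was called without baseline replicate 7, without baseline replicate 9 and without control replicate 7 (adjusted p 0.00803 to 0.0456). Cyp7b1 had 0.24, Abcb11 0.18, Abcb4 0.14 and -0.09 on its 2 probes, Cyp8b1 -0.09, Akr1d1 -0.08 and Slc27a5 0.01, with adjusted p from 0.195 to 0.91. The median of the 10 genes was -0.03, beside -0.00 over all probes.

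Quercetin livers against baseline shared the baseline mice with the previous comparison and the quercetin mice with the first, so the 3 sets of values are not independent. Baat was again called, with a difference of 0.19 (SE 0.06, limma adjusted p = 0.0236) and 12 of 12 quercetin mice above the baseline median, among 11.9% of probes called, 6.62% higher and 5.3% lower. Its dimmer probe had 0.10 (SE 0.06, limma adjusted p = 0.267). Cyp7a1 had 0.72 (SE 0.28, 95% interval 0.142 to 1.302, limma adjusted p = 0.0955) with 11 of 12 quercetin mice above the baseline median, and was called without baseline replicate 12 (0.84, limma adjusted p = 0.0463). The dimmer Cyp7a1 probe had 0.43 (SE 0.21, limma adjusted p = 0.193). Abcb11 had -0.18 (SE 0.09, limma adjusted p = 0.184), Slc10a1 -0.21 (SE 0.11, limma adjusted p = 0.214) and Cyp8b1 -0.24 (SE 0.18, limma adjusted p = 0.429). In order of group means, Cyp7a1 was lowest in control, intermediate at baseline and highest with quercetin, and only the outer pair was called. For Abcb11 the order ran the other way, from quercetin through baseline to control, and no pair was called.

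Among mice fed alike, the SD of Cyp7a1 was 0.70 to 0.82 on its brighter probe and 0.30 to 0.66 on its dimmer one. It was 0.40 to 0.50 for Cyp8b1, 0.37 to 0.47 for Cyp7b1 and 0.12 to 0.15 for Baat on their brightest probes. At baseline, mice numbered 1 to 6 had Cyp8b1 between 9.91 and 10.76 and those numbered 7 to 12 between 9.16 and 10.08. The Cyp8b1 medians of these numbers were 10.37 and 9.52 at baseline, 9.57 and 10.10 in control, and 9.91 and 9.55 with quercetin. Control mice thus ran the other way. For Slc10a1 the baseline medians were 13.83 and 14.33, with overlapping ranges (13.53 to 14.30 and 13.57 to 14.52), and for Cyp7a1 10.93 and 10.86. The division by number was made after the values were seen and was not tested.

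Deviations from the group means were correlated over the 36 mice for the 45 pairs of genes (100000 permutations within groups, two-sided). In 5 pairs r had an adjusted p of 0.0396, all positive: Abcb11 and Abcb4 (r = 0.53, rho = 0.46, permutation p = 0.00167 and 0.00719), Slc27a5 and Baat (r = 0.53, rho = 0.53, permutation p = 0.0022 and 0.00227), Cyp27a1 and Slc10a1 (r = 0.52, rho = 0.47, permutation p = 0.0044 and 0.00869), Cyp7b1 and Abcb4 (r = 0.51, rho = 0.48, permutation p = 0.00274 and 0.00506), and Cyp7b1 and Baat (r = 0.48, rho = 0.48, permutation p = 0.00376 and 0.0043). By rank, 0 of 45 pairs passed after adjustment (lowest adjusted p 0.0759). Without the 2 mice farthest from the median of the gene named first in the pair, r in these 5 pairs was 0.53, 0.51, 0.52, 0.60 and 0.35. Mice far from the median of the second gene were kept. Within slides it was 0.56, 0.45, 0.53, 0.62 and 0.47, and without control replicate 5 it was 0.49, 0.49, 0.52, 0.50 and 0.48. Without quercetin replicate 2 it was 0.53, 0.54, 0.52, 0.55 and 0.48. For the 2 canalicular pumps, Abcb11 and Abcb4, r was 0.46 at baseline, 0.81 in control and 0.10 with quercetin (n = 12 each), a difference that was not tested. From loess-normalized values 0 of the 5 passed, and for Slc27a5 and Baat r was 0.02 there. Cyp7a1 was in none of these pairs. With Cyp8b1, the enzyme that shares its route, it had r = 0.38, rho = 0.32, permutation p = 0.0276 and 0.0663, adjusted p = 0.13 and 0.213, and r = 0.26 without the 2 mice farthest from the median of Cyp7a1.

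Over the same 36 mice, the named genes of the whole table whose deviations were most like those of Cyp7a1 were Pes1 (r = 0.70), Zfand2a (r = 0.66) and Zfp108 (r = 0.63). For Cyp8b1 they were Nipal3 (r = 0.70), Wdr4 (r = 0.68) and Rgl2 (r = 0.65). For Abcb11 they were Slc22a30 (r = 0.80), Hao1 (r = 0.78) and Adipor2 (r = 0.78). All of these values share the arrays, the reference pool and the normalization, and they are given as a description.

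Of the other genes of the pathway, 5 were called between quercetin and control, in which 2.36% of all probes were called, 1.49% higher and 0.863% lower. The lists used here and below were chosen with earlier results of these data known. Of the 13 further synthesis genes in the table (all listed but Ch25h), 1 was called lower: Hsd3b7, the oxidoreductase that acts after 7α-hydroxylation, by -0.44 (SE 0.11, limma adjusted p = 0.0378), with 1 of 12 quercetin mice above the control median. The list median was -0.01, beside 0.01 over all probes. Of the 11 further transport genes in the table (all listed but Slc51a), 3 were called and all were higher, with a list median of 0.03. Abcc3, an exporter of conjugates towards the blood, rose by 0.32 (SE 0.07, limma adjusted p = 0.0156), with 12 of 12 mice above the control median. The microsomal epoxide hydrolase Ephx1 rose by 0.28. The canalicular conjugate pump Abcc2 (0.26) lay outside the rule for genes to name and was chosen after its value was seen, because the count is small. Of the 13 regulators, 1 was called: Nr1i3, the xenobiotic receptor Car, rose by 0.46 (SE 0.08, limma adjusted p = 0.00231), with 12 of 12 mice above the control median. The regulators' median was 0.02. Nr0b2, which encodes the repressor Shp and was singled out after its value was seen, had -0.53 (SE 0.15, limma adjusted p = 0.0668) and was not called, and Fxr (Nr1h4) had 0.09 and Lrh-1 (Nr5a2) 0.13. The Nr0b2 means differed by -0.30 among mice numbered 1 to 6 and by -0.76 among those numbered 7 to 12. In the same ranges of numbers the Cyp7a1 means differed by 2.04 and 0.11. The part of Nr0b2 in the Cyp7a1 result was not tested.

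Of 9 listed clock factors, 4 were called between quercetin and control livers, 3 higher and 1 lower, with a list median of 0.34 (2.36% of all probes were called, 1.49% higher and 0.863% lower). The list was chosen with earlier results of these data known, so this count cannot show an excess over that share. Bhlhe40, Bhlhe41, Hlf, Nfil3 and Nr1d1 were not called, with adjusted p from 0.0727 to 0.988 (limma). Dbp rose by 0.92 (SE 0.19, limma adjusted p = 0.00741), with 12 of 12 quercetin mice above the control median, and Tef, another D-box-binding factor, by 0.63 (SE 0.12, limma adjusted p = 0.00414). Nr1d2 rose by 0.42, whereas Arntl (Bmal1), the positive limb of the clock, fell by 0.998 on the log2 scale (SE 0.19, limma adjusted p = 0.0034), with 0 of 12 quercetin mice above the control median. Dbp differed by 0.91 among mice numbered 1 to 6 and by 0.93 among those numbered 7 to 12, and Arntl by -0.993 and -1.003. The time of day of each killing is not given in the sources used here, and the part of these factors in the Cyp7a1 result was not tested. The 3 genes with a match to the loose D-box pattern in the promoter stretch, Cyp27a1, Akr1d1 and Slc10a1, had differences of 0.05, 0.13 and 0.06 and were not called. A match is not evidence of binding, no promoter stretch was available for Cyp7a1, and the part of the D-box in these values was not tested.

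**Figure D4:**
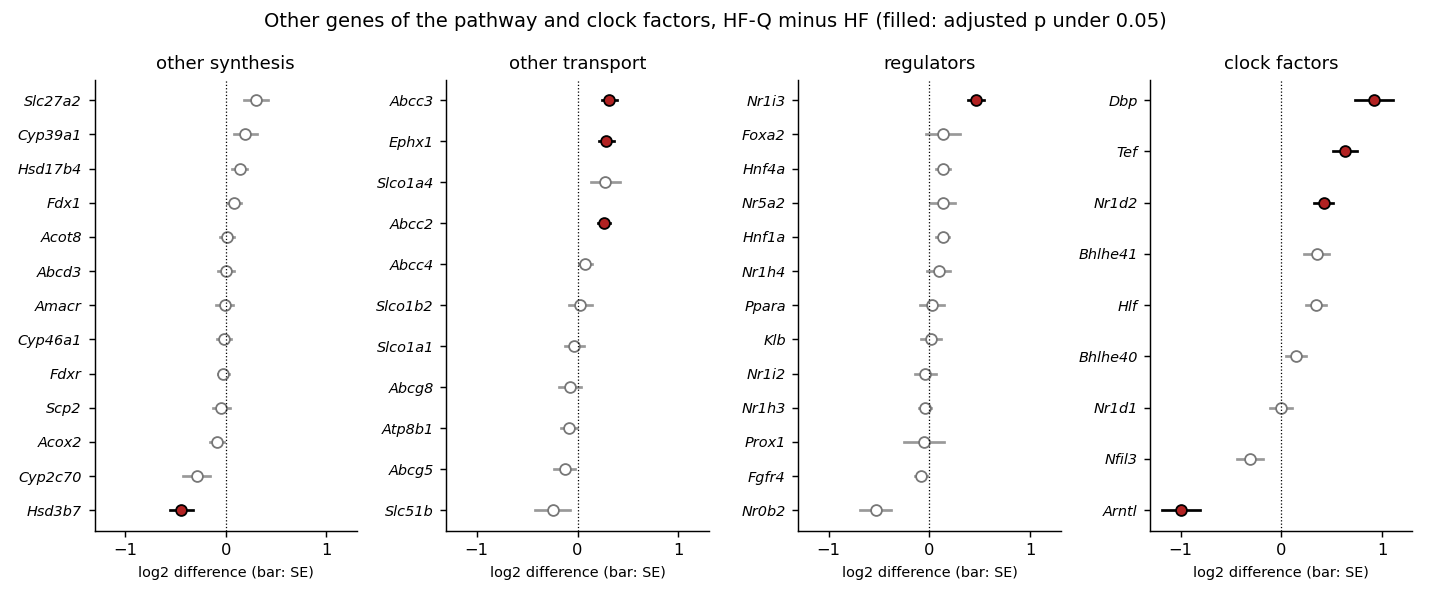
Log2 differences of quercetin minus control (horizontal axis, bars are the SE) for the further synthesis genes, further transport genes, regulators and clock factors in the table; filled points have an adjusted p under 0.05. Dbp (0.92) and Arntl (-0.998) lie farthest from 0, and most genes of the other panels lie within 0.3 of it.

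Against baseline, called genes of the same lists moved in both directions in control livers, where 21.3% of all probes were called, 10.9% higher and 10.4% lower. In these livers 1 of 13 synthesis genes (Acox2, the peroxisomal side-chain oxidase, -0.18), 2 of 11 transport genes (Abcc2 -0.27, and the canalicular flippase Atp8b1 0.25), 2 of 13 regulators (Nr1i3 -0.27 and Fgfr4 0.20) and 2 of 9 clock factors (Nfil3 0.53 and Bhlhe41 -0.28) were called, with list medians of -0.09, -0.02, 0.04 and -0.28. In quercetin livers, where 11.9% of all probes were called, 6.62% higher and 5.3% lower, 3 of 13 synthesis genes were called and all were lower: Hsd3b7 (-0.58), Acox2 (-0.26) and Cyp2c70, which makes muricholic acids in the mouse (-0.46). Of the transport genes 2 were called, Abcc3 (0.60) and Ephx1 (0.43), and 0 regulators and 0 clock factors passed (limma). The list medians were -0.08, 0.02, 0.06 and 0.14.

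Some markers of other cells moved with these comparisons. Between quercetin and control, 1 of 6 cholangiocyte markers was called (Sox9, -0.60). The list as a whole leaned the same way: 5 of the 6 had a lower mean with quercetin and 1 a higher one (Cftr, 0.14). The list median was -0.235, beside 0.01 over all probes. Spp1 (-0.35) and Krt19 (-0.30) were among the lower markers that were not called. The summed log2 level of the 6 was 13.60 to 14.71 in control and 13.42 to 14.11 with quercetin. Of the 5 sinusoidal endothelial markers, 1 was called (Pecam1, 0.38), with summed levels of 14.21 to 14.63 and 14.22 to 14.58. The other endothelial markers did not follow it: 3 of the 5 had a lower mean with quercetin, and the list median was -0.02. None of the 6 hepatocyte, 6 Kupffer cell, 6 stellate cell, 2 red cell, 1 adipocyte, 5 exocrine pancreas and 2 intestine markers in the table was called there (limma). Between control and baseline, 3 of 6 cholangiocyte markers were called higher (summed level 13.38 to 14.64 at baseline). Of the 2 red cell markers, 1 was called higher (Hba-a1, which has a near-identical copy). Their summed level ran from 14.44 to 15.18 at baseline and from 15.08 to 16.75 in control. Of the 2 intestine markers, Slc10a2 was called higher by 0.45 (SE 0.15, limma adjusted p = 0.0314), whereas Fabp2 had -0.08 and was not called. Slc10a2 was counted here as an intestine marker and not among the transport genes. In the same comparison, 1 of 6 hepatocyte markers (Cps1, -0.32) and Pecam1 (-0.34) were called lower. Between quercetin and baseline, 2 of 6 hepatocyte markers were called lower (Cps1 -0.45 and Ttr -0.33), while 3 of the 6 had a higher mean with quercetin. Both red cell markers were called, Hba-a1 higher and Alas2 lower. Slc10a2 had 0.39 (limma adjusted p = 0.0522) and was not called. The 6 Kupffer cell markers were not called against baseline, but each had a higher mean in control (median difference 0.33, highest for Marco at 0.82) and in quercetin livers (median difference 0.32, Marco 0.92). Their summed log2 level ran from 14.11 to 16.05 at baseline, from 14.78 to 15.93 in control and from 14.75 to 15.60 with quercetin. The part of these cells in the values of the bile acid genes was not tested.

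**Figure D5:**
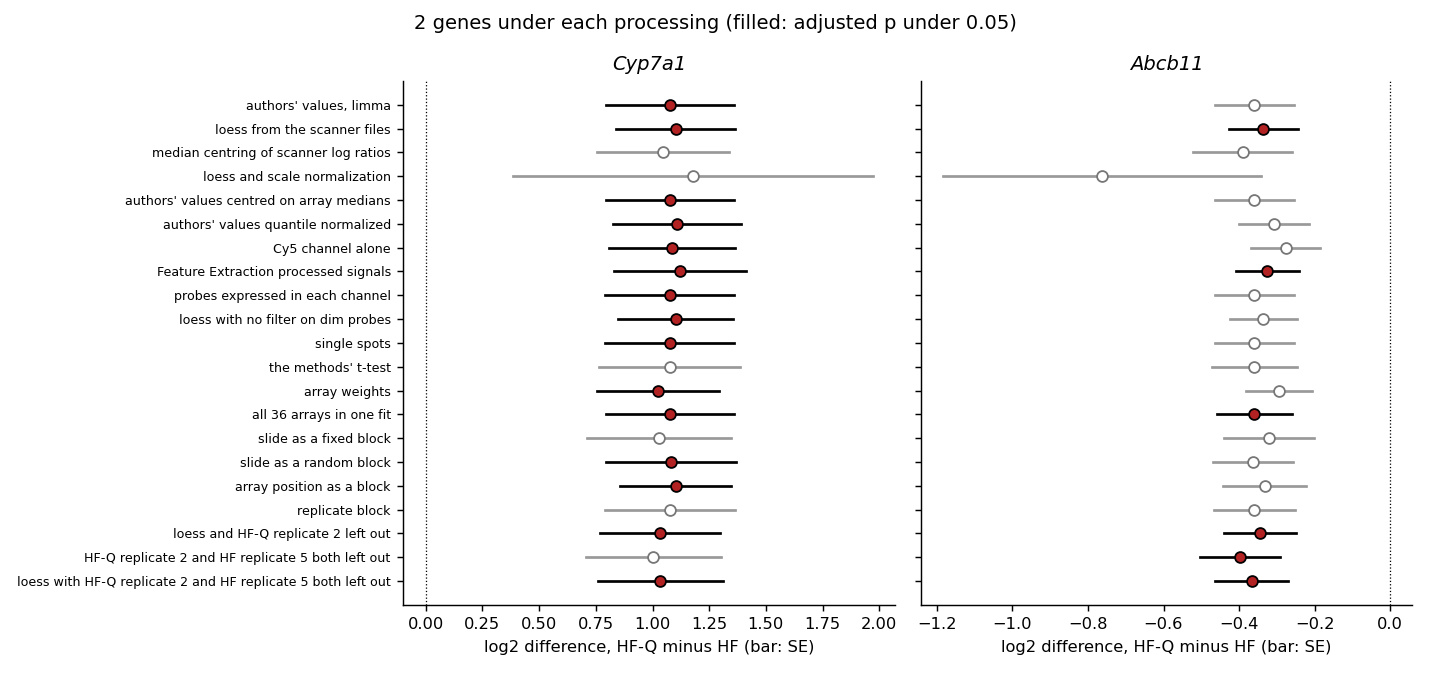
Log2 difference of quercetin minus control for Cyp7a1 (left) and Abcb11 (right) under the reported fit and 20 alternatives; bars are the SE and filled points have an adjusted p under 0.05. Every Cyp7a1 value lies between 1.00 and 1.18, and every Abcb11 value below 0.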

How the data were processed

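Spot intensities were quantified by the authors with Agilent Feature Extraction (version 10.5.1.1 per the labels, an earlier one per the methods of the study). They were deposited as median intensity and median local background per spot and dye. The values analysed are the log2 table that the authors deposited beside them, of 23256 spots or 21781 probes. Checked against the scanner intensities, it equals log2 Cy5 minus log2 Cy3 plus the mean log2 Cy3 of the spot over all arrays, with equal array medians and no background subtraction (median absolute difference 0.0192 over 837216 values). Its spots are those whose signal, averaged over dyes and arrays, exceeds 2 times background. Precision is limited by the 12 arrays per group.

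Groups and replicate numbers came from the sample titles. Spots of a probe were averaged and groups compared 2 at a time with limma (lmFit, eBayes). Gene names came from the accessions and symbols in the array files. The genes, lists and markers were chosen with earlier results of these data known. Named were the 10 genes, list genes called in a comparison (at most 8, by size) and the 3 genes most alike to Cyp7a1, Cyp8b1 and Abcb11. Lists covered further synthesis genes, transport genes, regulators, clock factors and markers of hepatocytes, cholangiocytes, Kupffer, stellate, sinusoidal endothelial, red, exocrine pancreas and intestine cells and adipocytes. A listed clock factor is not reported here. Alternatives changed normalization (loess after normexp, offset 50; median; scale; quantile; Cy5 alone; processed signals), filter, test, weights, blocks (slide, position, replicate number) and mice; that without quercetin replicate 2 and control replicate 5 together was added after the data were seen. Each slide had 1 scan time, so these cannot be told apart, and each held mice of all groups. The fits were tested on simulated data. R 4.3.3, limma 3.58.1, statmod 1.5.0, data.table (version 1.17.8), Python 3.11.15, scipy 1.17.1 and matplotlib 3.10.9 were used.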

Additional observations from a re-analysis of the deposited data

How the results depend on the processing

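For quercetin against control, the count of called genes among the 10 was 1. It was 2, with Abcb11 added, under loess, Feature Extraction processed signals, all 36 arrays in one fit, loess without quercetin replicate 2, and loess without quercetin replicate 2 and control replicate 5. It was 0 under median centring of scanner log ratios, loess and scale normalization, the methods' t-test and slide as a fixed block. Leaving out 1 mouse gave 0 to 2. Without quercetin replicate 2 and control replicate 5 it stayed 1, with Abcb11 in place of Cyp7a1. For control against baseline the count of 1 (Baat) became 2 under loess, loess with no filter on dim probes and processed signals, with Slc10a1 and Cyp27a1 in place of Baat, 2 with all 36 arrays in one fit (Baat and Slc10a1), 3 under loess and scale normalization, quantile normalization and array weights (all of these genes), and 0 for the Cy5 channel alone and slide as a fixed block, with 1 to 3 without 1 mouse. For quercetin against baseline it became 0 under median centring, scale normalization and Cy5 alone and 2 with array position as a block (Cyp7a1 added to Baat), with 1 to 2 without 1 mouse. Of the 45 correlations, 5 passed on the authors' values and 1 on loess values (Slc10a1 and Abcb4, r = -0.61, against -0.27).

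Same-numbered mice were little alike over all probes: quercetin and control mice had a median correlation of residuals of -0.01, above 0.1 in 3 of 12 pairs. The median was 0.06 for control and baseline mice (highest 0.36) and 0.03 for quercetin and baseline mice. These values do not show that the numbers carry no pairing. With a replicate block, the count for quercetin against control was 0 (Cyp7a1 1.08, limma adjusted p = 0.0727), and calls over all probes went from 513 to 360; the block changed no other count of called genes among the 10. Calls over all probes in the same comparison were 76 under median centring, 81 under scale normalization, 206 for Cy5 alone, 210 with slide as a fixed block and 804 with array weights. For quercetin against baseline they were 334, 566, 1216 and 4220 under median centring, scale normalization, Cy5 alone and array weights, against 2596, and for control against baseline 2805 under Cy5 alone, against 4645. Centring the authors' values on array medians changed nothing, since the medians are equal.

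Signs turned only for probes that were not called. Of 715 differences of single probes under the alternatives, 34 changed sign, 18 lost a call and 26 gained one. For quercetin against control, Cyp27a1 (-0.16), Slc10a1 (-0.20), Abcb4 (0.20) and its dimmer probe (0.091) turned under scale normalization. Abcb4 also turned under quantile normalization (0.010), Cy5 alone (0.016) and array weights (0.011, and 0.014 on its dimmer probe). Baat had -0.031 under median centring, -0.058 for Cy5 alone, -0.00485 under array weights, -0.00173 with slide as a random block, -0.00429 with position as a block, and -0.019 without the 2 arrays that stood apart. For control against baseline, median centring gave 0.050 for Cyp8b1, 0.018 for Akr1d1, 0.065 for the dimmer Baat probe and 0.040 for the dimmer Abcb4 probe, and Cy5 alone gave 0.043 for Akr1d1. Slc27a5 had -0.054 under loess with or without the filter, -0.056 under scale normalization, -0.039 under quantile normalization, -0.068 for Cy5 alone, -0.026 from processed signals, -0.022 under array weights and -0.0053 with slide as a fixed block. For quercetin against baseline, Cyp7b1 had -0.020 under loess with or without the filter, -0.14 under scale normalization, -0.032 from processed signals, -0.049 under array weights and -0.066 under loess without quercetin replicate 2, and Slc27a5 had -0.067 for Cy5 alone. The cause of these changes was not tested.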
